A study of Mus musculus with 3 samples.

Results

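The genes of antigen presentation on MHC class I and class II molecules were examined in endothelial cells of the adult renal medulla. They were taken as every gene whose symbol in the platform annotation begins with H2-, the prefix of the mouse major histocompatibility complex, together with 27 genes chosen by name for antigen processing, its transcriptional control and costimulation. This gave 56 genes among the 19938 represented by a probe set that names 1 gene, and a gene with several such probe sets was represented by the one with the highest mean. The H2-K1, H2-D1, H2-DMb1 and H2-DMb2 genes share their probe sets with other genes and were therefore not among the 56. By role, 23 genes belong to the class I or class I-like chains with their light chain, and 10 supply peptides to class I. The class II pathway has 11 genes, transcriptional control 5 and the costimulatory or checkpoint molecules 6. The remaining 1, H2-Ke6, carries the prefix only by its position in the complex. RefSeq lists 5 of the 56, H2-Bl, H2-K2, H2-Q5, H2-T10 and H2-Ea, as transcribed pseudogenes.

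All 3 arrays belong to 1 group, so that levels could be set against limits and compared between arrays but not with another compartment. Adult male FVB/N mice carried the transgene Tg(TIE2GFP)287Sato, in which the Tie2 promoter drives green fluorescent protein. Their medulla was dissected and treated with Collagenase A, and fluorescent cells were collected by fluorescence activated cell sorting, each array coming from a pool of 2 kidneys. The Tie2 promoter is also active in some blood cells, and FVB/N mice carry a different haplotype of the H2 complex from C57BL/6J, the strain of the mouse reference genome, so that alleles may differ under the probes, which was not tested. All 12 of 12 endothelial markers lay above the background limit defined below, as did 6 of 11 tubule markers, beside 52.4% of all genes. The part of tubule cells in the levels given here was not tested. The array medians over all probe sets lay within 0.0268 log2 units of each other, and 46.3% of all genes and 23 of the 56 had the same value in every array, so that the spread given here understates the error for many genes. The number of arrays limits the precision, and where values differ the p-values measure only the spread between these 3 pools. Genes with the same value in every array show no such spread, and their p-values rest on the spread that the fit borrows from other genes.

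Class I molecules display peptides made in the cytosol on nearly all nucleated cells, with beta-2 microglobulin as the light chain, peptides cut by the proteasome, carried by the TAP transporter and trimmed and loaded in the endoplasmic reticulum. Class II molecules are made of alpha and beta chains that travel with the invariant chain Cd74 to endosomes, where DM exchanges its remnant for peptides taken up from outside. They are best known from dendritic cells, macrophages and B cells, but endothelial cells can make them too, above all under interferon gamma, which acts through the coactivator Ciita, while Nlrc5 has the same place for class I. Both coactivators have no DNA contact of their own and dock on the RFX complex at the X box and on NF-Y at the Y box of the promoters.

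Letters of that docking site were found in order in some of these promoters. The stretches of 4 genes are shown because these share the arrangement while lying on different sides of the background limit in the arrays, H2-Oa below it and the others above it. RefSeq promoter windows of GRCm38.p6, with 250 bases before and 50 after the start, were found for 40 of the 56 genes, in 43 windows. Each sequence is given on the strand of its gene, and capitals mark GCAAC (part of the X box bound by RFX), TGACG or its reverse complement (part of the X2 box), CCAAT or its reverse complement ATTGG (the Y box) and, in B2m, the core of the interferon-stimulated response element (a pair of GAAA with NN between them). The stretches are H2-Aa at chr17:34287824-34288023 on the minus strand, H2-Eb1 at chr17:34305667-34305866 on the plus strand, H2-Oa at chr17:34092179-34092378 on the plus strand and B2m at chr2:122147487-122147686 on the plus strand.
H2-Aa: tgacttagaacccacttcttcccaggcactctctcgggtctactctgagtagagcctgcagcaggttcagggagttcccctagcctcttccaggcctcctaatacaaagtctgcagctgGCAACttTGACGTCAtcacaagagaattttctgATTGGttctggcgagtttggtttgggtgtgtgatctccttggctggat
H2-Eb1: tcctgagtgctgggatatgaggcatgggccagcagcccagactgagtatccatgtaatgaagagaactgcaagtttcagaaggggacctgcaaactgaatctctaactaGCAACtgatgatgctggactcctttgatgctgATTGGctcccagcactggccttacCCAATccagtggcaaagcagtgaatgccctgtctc
H2-Oa: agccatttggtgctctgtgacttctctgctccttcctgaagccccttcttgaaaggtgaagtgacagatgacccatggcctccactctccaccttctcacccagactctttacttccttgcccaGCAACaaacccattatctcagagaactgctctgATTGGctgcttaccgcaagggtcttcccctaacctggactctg
B2m: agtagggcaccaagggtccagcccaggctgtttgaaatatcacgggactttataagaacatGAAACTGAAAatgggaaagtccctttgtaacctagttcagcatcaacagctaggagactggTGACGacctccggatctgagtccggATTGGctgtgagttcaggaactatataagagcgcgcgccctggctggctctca

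In H2-Aa, GCAAC began 81 bases before the start, TGACG 74 and ATTGG 48. The corresponding distances were 91 bases for GCAAC and 59 for ATTGG in H2-Eb1, and 76 and 43 in H2-Oa. B2m had no GCAAC in the stretch and held TGACG at 78 and ATTGG at 53 bases before the start, with the interferon response core at 139. GCAAC or TGACG followed by ATTGG 15 to 45 bases on, on the same strand, was found in 7 of the 43 windows, those of B2m, H2-Aa, H2-Eb1, H2-Eb2, H2-M3, H2-Oa and H2-Ob, and in 2.35% of 32851 windows of the same length. Of the 9 class II windows 5 had it. The arrangement and GCAAC were chosen after these sequences had been read, and no test was made. CCAAT in either orientation, which takes in ATTGG, was in 28 of the 43 windows and in 37.4% of all windows, TGACG in 14 and in 20.8%, and GCAAC in 16 and in 35.2%. The interferon response core was in 4 windows (B2m, Ctss, Erap1 and Psme1) and in 3.44% of all, and GGGGATT, part of the class I enhancer A, in 4 and in 3.1%. These motifs were searched on both strands. A match describes letters only and says nothing of binding.

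Most of the antigen presentation genes passed a level of 100 units, and 31 of the 56 passed a stricter limit set by sensory receptor genes. Levels in units are the deposited log2 values taken back to the linear scale, so that 100 units, a limit modelled on the filter of the study, is log2 6.64. With limma, 48 of the 56 lay above 100 units, beside 84.5% of all genes, and 4, the class I-like genes H2-M10.1, H2-M10.5, H2-M10.6 and H2-M11, lay below it, beside 13.7% of all. At or above 100 units in all arrays were 50 of the 56, beside 85.4% of all genes. The share past 100 units was thus close to that of any gene on the array. The background limit, log2 7.95 or 247 units, was set so that 95 in 100 of 1245 probe sets for olfactory, vomeronasal and taste receptors had a mean below it. Against it, 31 of the 56 lay above, beside 52.4% of all genes, and 20 below, beside 41.5%. In all arrays at or above it were 33 of the 56, beside 54.8% of all genes. Counts over the 56 were therefore near the background, and the groups by role differed more among themselves: above the limit were 10 of 10 genes of peptide supply, 4 of 5 of transcriptional control, 5 of 11 of class II, 9 of 23 of class I and class I-like, and 2 of 6 of costimulation. The differences between roles were not tested. In cells sorted in bulk, fewer cells that express a gene and less RNA per cell cannot be told apart.

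**Figure D1:**
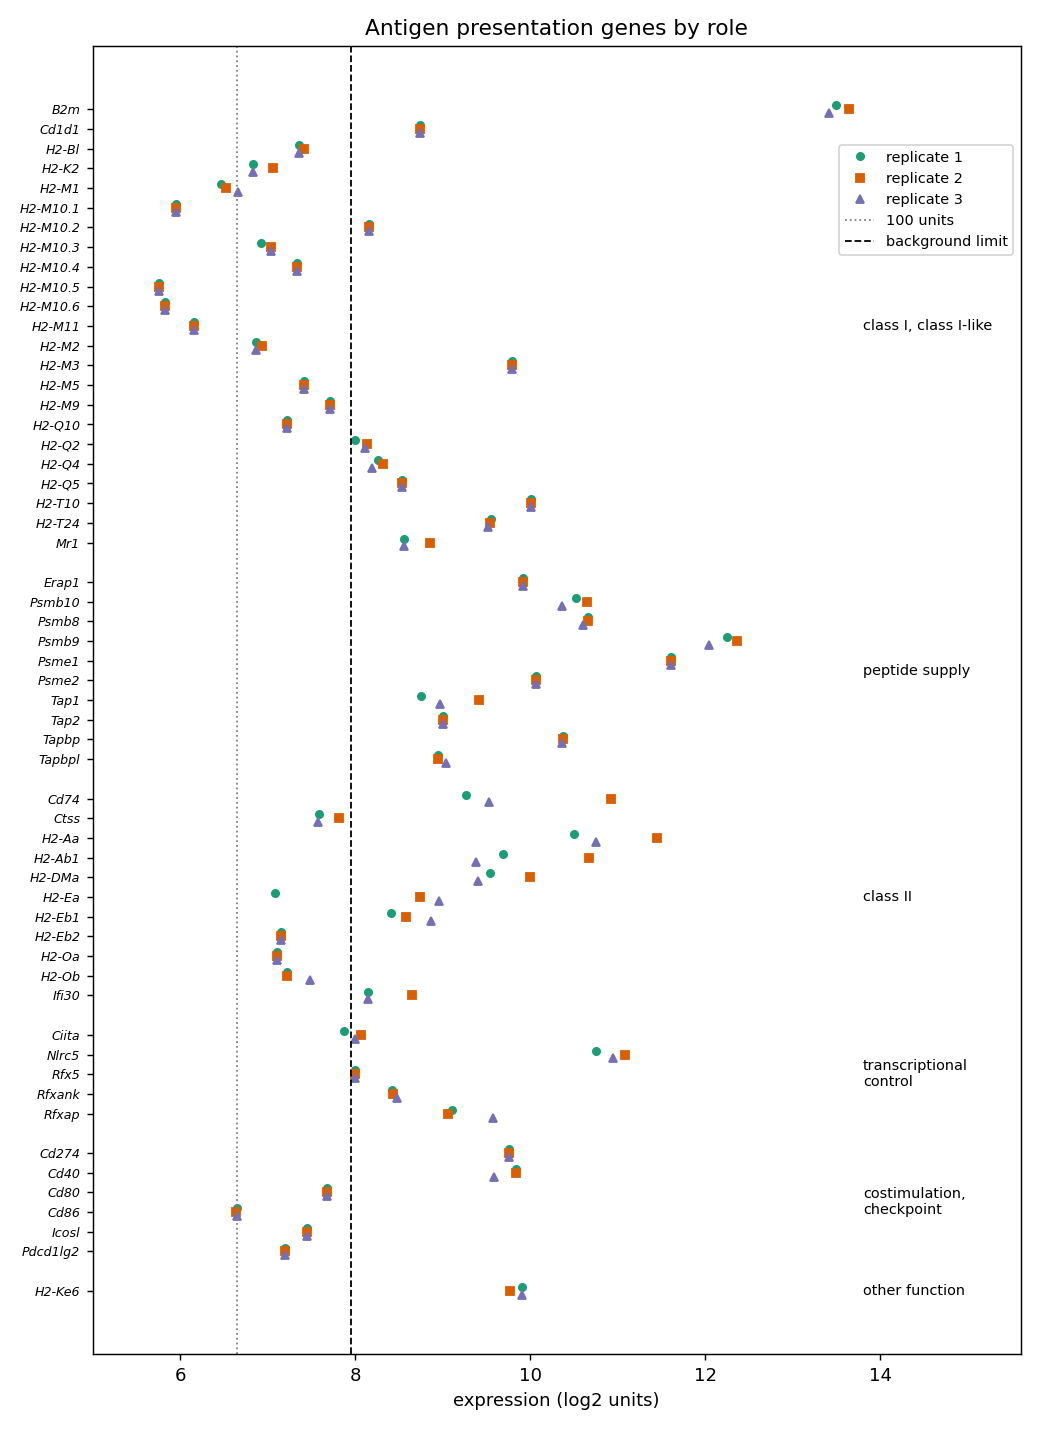
Expression (x axis, log2 units) of the 56 genes (y axis, grouped by role), with 1 point per array; the dotted line marks 100 units (6.64) and the dashed line the background limit (7.95). All 10 genes of peptide supply lie to the right of the dashed line, whereas the H2-M10 genes spread over both sides of the dotted line and 13 of the class I and class I-like genes lie left of the dashed line in every array.

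The chains of the class II A molecule, its invariant chain and the DM alpha chain were above the background limit, and all of these were highest in replicate 2. H2-Aa, the A alpha chain, measured log2 10.49, 11.45 and 10.75 in replicates 1, 2 and 3 (1441, 2794 and 1721 units). Every array lay well above the limit, by 2.95 ± 0.27 (SE) on average, with an adjusted p of 0.0063. H2-Ab1, the A beta chain, measured 9.69, 10.66 and 9.38 (825, 1623 and 666 units), with an adjusted p of 0.0274 against the limit. Cd74, the invariant chain, measured 9.27, 10.93 and 9.53 (616, 1945 and 740 units), with an adjusted p of 0.0487. Replicate 2 stood apart from both others in each of these genes, by 0.70 in H2-Aa, 0.98 in H2-Ab1 and 1.39 in Cd74. H2-DMa measured 9.53, 9.99 and 9.41, an SD of 0.31, and was past the limit with an adjusted p of 0.00753. Its beta chain partner could not be read alone.

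The genes of the E molecule chains did not follow that order of arrays, and whether these cells hold the molecule was not examined. H2-Eb1, the E beta chain, measured 8.40, 8.58 and 8.87 in replicates 1, 2 and 3, above the background limit with an adjusted p of 0.0291. H2-Ea, the E alpha chain, measured 7.08, 8.73 and 8.95, and was told apart from neither limit (adjusted p = 0.0896 against 100 units and 0.636 against the background limit). Both were highest in replicate 3 and lowest in replicate 1, and the SD of H2-Ea, 1.02, was the largest of the 56 genes. RefSeq lists H2-Ea as a transcribed pseudogene in C57BL/6J, and the FVB/N allele was not examined.

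Of the other class II genes, none was above the background limit. H2-Oa and H2-Ob, the chains of the DO molecule that restrains DM, measured 7.11 in every array and 7.22, 7.22 and 7.48. H2-Eb2, a class II beta-like gene, measured 7.15 in every array. These 3 genes lay above 100 units but below the background limit in every array. Ctss, cathepsin S, the protease that cuts the invariant chain in professional antigen-presenting cells, measured 7.58, 7.82 and 7.57, under the limit in every array with an adjusted p of 0.0542, and of 0.0298 when the prior was estimated without the genes whose arrays repeat a value. Ifi30, the lysosomal thiol reductase GILT, measured 8.14, 8.64 and 8.14, past the limit in every array but with an adjusted p of 0.14.

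**Figure D2:**
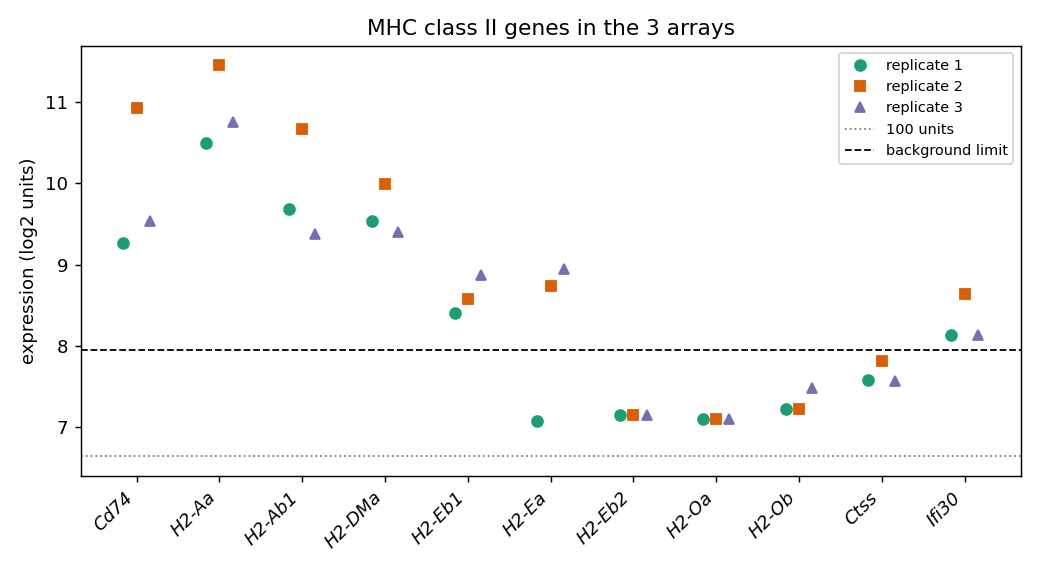
Expression (y axis, log2 units) of the 11 class II genes (x axis) in the 3 arrays, 1 point per array; the dotted line is at 100 units (6.64) and the dashed one at the background limit (7.95). Replicate 2 is highest for Cd74, H2-Aa, H2-Ab1, H2-DMa, Ifi30 and Ctss, and replicate 3 for H2-Eb1, H2-Ea and H2-Ob.

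Several class II calls above the background limit were lost when an array was left out. Without replicate 1, 2 and 3 the adjusted p was 0.182, 0.0595 and 0.227 for Cd74, 0.184, 0.0634 and 0.133 for H2-Ab1, and 0.114, 0.202 and 0.1 for H2-Eb1, so that these calls were lost each time. The robust and trended prior also ended the call of Cd74 (adjusted p = 0.0567). H2-Aa lost its call without replicate 1 (0.0698) and without replicate 3 (0.098) but kept it without replicate 2 (0.0331), as did H2-DMa (0.103, 0.08 and 0.0296).

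Class II genes had the largest spread between arrays of the roles, given here as a description without a test. A range of at least 0.5 log2 units over the arrays was found in 8 of the 56 genes, beside 7.44% of all genes, and 6 of these 8 were class II genes (Cd74, H2-Aa, H2-Ab1, H2-DMa, H2-Ea and Ifi30). The other two were Tap1 and Rfxap. The median range was 0.502 over the 11 class II genes, 0.0529 over the 56 and 0.0137 over all genes, and it was 0.0631 over genes past the background limit in all arrays. Replicate 2 was at least 0.5 above both other arrays in 4 of the 56 (Cd74, H2-Aa, H2-Ab1 and Ifi30), beside 1.09% of all genes. Replicate 1 was so in 0 of the 56, beside 1.23% of all genes, and replicate 3 in 0, beside 0.632%. By any margin, replicate 2 was the highest array in 18 of the 56 (32.1%) and in 12.5% of all genes. Among the 2483 genes highest in replicate 2, ranked by the gap to the next array, Cd74 was number 13, H2-Ab1 39 and H2-Aa 92. The other class II genes highest there were Ifi30 at 216, H2-DMa at 258 and Ctss at 625. The rest of the 18 ran from 279 (Tap1) to 2027 (H2-Q2).

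Over the 9 measured genes of the class II chains, DM, DO and the invariant chain, the median of replicate 2 minus the mean of the others was 0.53, and over all genes it was 0. This median depended on replicate 1: against replicate 3 alone it was 0, and against replicate 1 alone 0.46. Over H2-Aa, H2-Ab1, H2-DMa and Cd74, chosen after their values were seen, it was 0.98. The summed level of the 9 genes was 8620 units in replicate 2, against 4527 in replicate 1 and 5225 in replicate 3. The corresponding medians over the class I genes, the control genes and the costimulatory genes were 0, and over peptide supply 0.0053. Repeated values left some of these medians little room to move. The value was the same in every array in 56.5% of class I and 66.7% of costimulatory genes. Replicate 2 was the highest array in 7 of 23 class I genes and 3 of 10 of peptide supply, beside 12.45% of all genes. It was so in 2 of 5 control and 0 of 6 costimulatory genes.

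**Figure D3:**
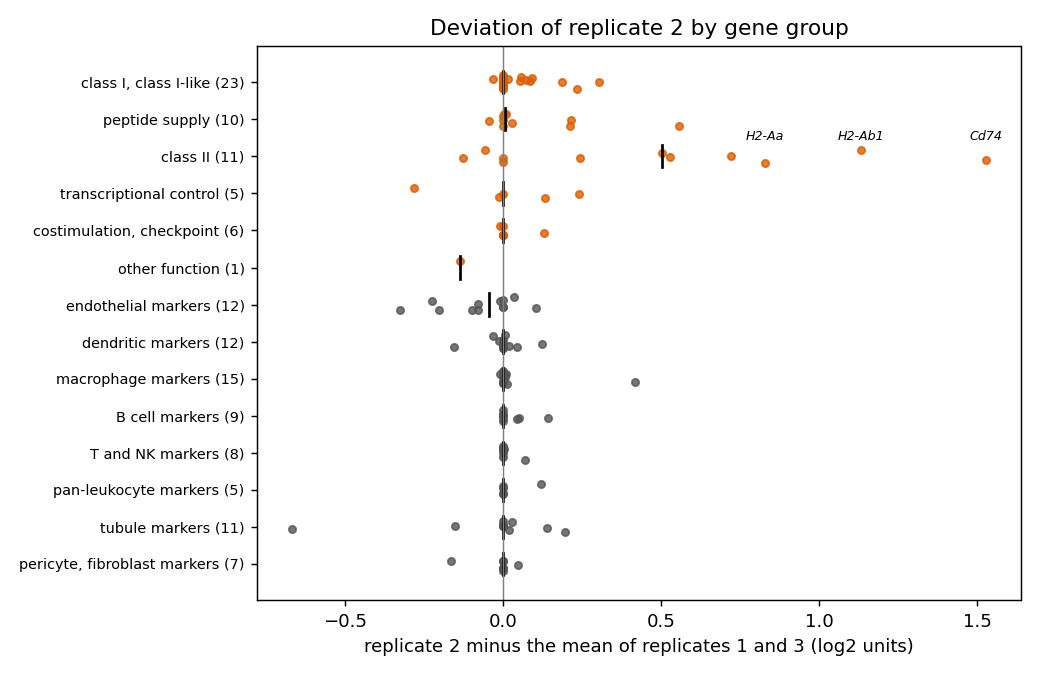
Replicate 2 minus the mean of replicates 1 and 3 (x axis, log2 units), 1 point per gene, by role for the 56 genes (orange) and by marker list for other cell types (grey), with the number of genes in parentheses; black bars are medians. The class II median is 0.502, with Cd74, H2-Ab1 and H2-Aa farthest to the right. The medians of the leukocyte lists are 0, and in all of these lists but the dendritic one most genes repeat 1 value.

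Most markers of other cells that could carry class II were below the background limit, as were 41.5% of all genes. Most of these markers repeated 1 value in every array, so that their sums had little room to move. The sums also weigh the brightest markers most, such as Mertk at 10.49 and Ccr7 at 9.20, each the same in every array. Values differed between arrays in 7 of 12 dendritic, 6 of 15 macrophage and monocyte, 3 of 9 B cell, 2 of 8 T and NK cell and 1 of 5 pan-leukocyte markers. The summed level of 12 dendritic cell markers was 3156 units in replicate 2, against 3221 and 3156 in replicates 1 and 3, that of 15 macrophage and monocyte markers 4269, against 4233 and 4204, and that of 9 B cell markers 1737, against 1690 and 1718. For 8 T and NK cell markers the sums were 1236, against 1227 and 1228, and for 5 pan-leukocyte markers 705, against 705 and 684. No marker in any list was highest in replicate 2 by 0.5 or more. Lyz2, lysozyme of macrophages, came nearest, at 7.63 in replicate 2, against 7.15 and 7.28, below the background limit throughout. Ptprc (CD45), which defines leukocytes, was at 6.68 in every array and Itgax (CD11c) at 7.18, both below the background limit, as were all 5 pan-leukocyte markers. Some leukocyte markers lay above it, none of them highest in replicate 2: 3 of 12 dendritic (Zbtb46, Clec9a and Ccr7), 4 of 15 macrophage and monocyte (C1qb, Cx3cr1, Mertk and Cd68), 2 of 9 B cell (Pax5 and Ighm) and 1 of 8 T and NK cell markers (Cd3e). Of all genes, 52.4% lay above it.

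Of 11 tubule markers, 6 lay above the background limit and 4 below it, beside 52.4% and 41.5% of all genes. The summed level of the 11 was 6702, 4416 and 3546 units in replicates 1, 2 and 3. Umod measured 11.608, 10.397 and 9.495 and Slc12a1 9.68, 8.07 and 7.81, both markers of the thick ascending limb. These genes had the largest ranges in the list, and the median of replicate 2 minus the others over the 11 was 0. Endothelial markers summed to 58374, 52736 and 54331 units, lowest in replicate 2. Pericyte and fibroblast markers summed to 1664, 1630 and 1630 units. The part of leukocytes, tubule cells or the sort in the class II values of replicate 2 was not tested, and scan dates or other batches were not examined.

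Of the 23 class I and class I-like genes, 9 were above the background limit, among them the light chain, beside 52.4% of all genes. B2m, beta-2 microglobulin, measured 13.49, 13.64 and 13.42 (11539, 12770 and 10927 units), an SD of 0.11. H2-M3, which presents N-formylated peptides, measured 9.79 in every array, and H2-T10, a class I-like gene that RefSeq lists as a transcribed pseudogene, measured 10.01 in every array. All were past the background limit in every array, and 0 of the 23 genes had a range of 0.5 or more, beside 7.44% of all genes. The median range was 0 over the 23 and 0.0137 over all genes. Cd1d1, which presents lipids to NKT cells, measured 8.74 in every array. Mr1, which presents vitamin B metabolites to MAIT cells, measured 8.55, 8.85 and 8.55, above the limit with an adjusted p of 0.014. H2-T24 was above it as well, at 9.55, 9.54 and 9.51.

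Of the Q region genes, H2-Q4 (8.26, 8.32 and 8.19) and the transcribed pseudogene H2-Q5 (8.54 in every array) were above the background limit. H2-Q2 measured 7.99, 8.13 and 8.11, past the limit in every array but with an adjusted p of 0.0769. H2-Q10, known as a secreted class I molecule of the liver, was below the limit at 7.21 in every array. The H2-M10 genes, known from the vomeronasal organ, were spread widely: H2-M10.2 was above the limit at 8.15, H2-M10.3 and H2-M10.4 lay between the limits, and H2-M10.1 (5.95), H2-M10.5 (5.76) and H2-M10.6 (5.82) lay below 100 units. H2-M11 was also below 100 units, at 6.16 in every array, and H2-M1, at 6.46, 6.53 and 6.65, was not told apart from it. The remaining H2-Bl, H2-K2, H2-M2, H2-M5 and H2-M9 had means of 6.89 to 7.70, under the background limit in every array, and H2-K2 (6.83, 7.06 and 6.83) was not told apart from 100 units (adjusted p = 0.0611). In all, 13 of the 23 were below the background limit, beside 41.5% of all genes. Class I genes are close paralogs that can share probes, so that a level may include signal of a neighbour. The calls above the limit were lost without replicate 1 or 3 for Mr1 and without any 1 of the arrays for H2-Q4.

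All 10 genes that supply peptides to class I were above the background limit, beside 52.4% of all genes. Psmb9, an interferon-inducible catalytic subunit of the immunoproteasome, measured 12.25, 12.36 and 12.04, with an adjusted p of 0.0003. Psmb8 measured 10.658, 10.658 and 10.605, and Psmb10 10.52, 10.65 and 10.36, so that all inducible catalytic subunits were past the limit in every array. The constitutive subunits that they replace were past it as well, with Psmb5 at 10.49, 10.49 and 10.47, Psmb6 at 11.37, 11.64 and 11.14 and Psmb7 at a mean of 10.70 ± 0.35 (SD, n = 3). Psme1 and Psme2, the subunits of the PA28 proteasome activator, measured 11.61 and 10.06 in every array, and Erap1, which trims peptides in the endoplasmic reticulum, 9.91.

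The subunits of the TAP transporter differed in spread. Tap1 measured 8.75, 9.41 and 8.97 in replicates 1, 2 and 3, and Tap2 9.002 in every array. Tap1 was highest in replicate 2 by 0.44, the largest gap of this role, and its range of 0.67 was the only one in the role over 0.5. The call of Tap1 above the background limit (adjusted p = 0.0223) was lost without any 1 of the arrays, with adjusted p of 0.109, 0.0774 and 0.176 without replicates 1, 2 and 3. Tapbp, tapasin, which bridges TAP and class I, measured 10.38, 10.38 and 10.36, and its relative Tapbpl, which edits class I peptides, 8.94, 8.94 and 9.03.

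Among the genes for transcriptional control, the class I coactivator was above the background limit and the class II coactivator was not told apart from it. Nlrc5 measured 10.75, 11.09 and 10.94 on its brightest probe set. Ciita measured 7.870, 8.064 and 7.996, with a difference from the limit of 0.03 ± 0.05 (SE) and an adjusted p of 0.638. Ciita was above 100 units with an adjusted p of 0.00103, and only replicate 1 fell under the background limit. Of the RFX complex, Rfxank measured 8.42, 8.43 and 8.47 and Rfxap 9.10, 9.05 and 9.58, both above the limit. Rfxap was called there with an adjusted p of 0.0114, and of 0.116 without replicate 1 and 0.107 without replicate 2. Rfx5, the DNA-binding subunit, measured 7.997 in every array, 0.05 above the limit. The call was lost when the prior was estimated without the genes whose arrays repeat a value (adjusted p = 0.467).

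Nlrc5 had 19 probe sets that name it alone, and these did not give 1 level. Their means ran from 6.25 to 10.93 with a median of 8.44, and 12 of the 19 were at or above the background limit in all arrays, while 2 were under it in every array. The level quoted for the gene is that of its brightest probe set. The range over the arrays was at least 0.5 in 4 of the 19, with a median range of 0.172. Cd80, the other gene with more than 1 probe set, measured 7.68 and 6.86 on its 2 probe sets, with the same value in every array.

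**Figure D4:**
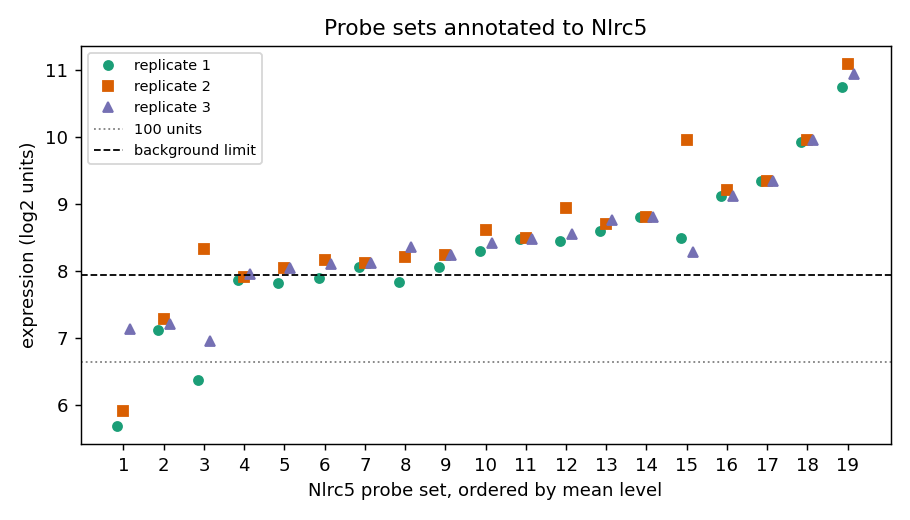
Expression (y axis, log2 units) of the 19 probe sets that name Nlrc5 alone (x axis, ordered by mean), 1 point per array; the dotted line is at 100 units (6.64) and the dashed one at the background limit (7.95). The means run from 6.25 to 10.93, and 12 probe sets are at or above the background limit in all arrays.

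Of the costimulatory and checkpoint molecules, Cd274 and Cd40 were above the background limit and the B7 molecules of professional antigen-presenting cells were below it. Cd274, the inhibitory ligand PD-L1, measured 9.75 in every array. Cd40, the receptor through which T cells activate antigen-presenting and endothelial cells, measured 9.84, 9.84 and 9.58, with an adjusted p of 0.00147. Cd80 measured 7.68 in every array and Cd86 6.64, 6.63 and 6.64, and Cd86 was not told apart from 100 units. Both ligands of CD28 were thus under the background limit in every array, as were Icosl, the ligand of ICOS, at 7.45 and Pdcd1lg2, PD-L2, at 7.19. H2-Ke6, which encodes the steroid dehydrogenase Hsd17b8 and has no part in presentation, measured 9.91, 9.77 and 9.91.

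Other genes of the same pathways, from a list of 54 of which 48 were measured, were nearly all detected. Above 100 units were 47 of the 48, beside 84.5% of all genes, and 1, Tnfsf9 (4-1BB ligand), lay below it at 6.41. Above the background limit were 43 of the 48, beside 52.4% of all genes, and 4 lay below it. The chaperones of class I loading were above it, with Calr at 11.83, 11.81 and 11.81, Canx at 12.23, 12.23 and 12.23 and Pdia3 at 12.11, 11.81 and 12.12. So were the subunits of NF-Y (Nfya at 9.28 and Nfyc at 9.22 in every array, Nfyb at 9.47, 9.69 and 9.76) and the receptor and kinases for interferon gamma, with Ifngr1 at 10.77, 10.49 and 10.31 and Jak2 at 9.91 in every array. Irf1, an interferon-induced activator, measured 9.35, 9.17 and 9.35, lowest in replicate 2. Of the class II proteases, Ctsl, cathepsin L, was above the limit at 11.95, 11.47 and 11.95, and Lgmn, legumain, was not told apart from it at 8.49, 8.31 and 7.67. The 4 below it were the coinhibitory Vtcn1 (7.65) and the TNF family ligands Tnfsf4 (6.76), Tnfsf9 and Tnfsf18 (7.11), each with the same value in every array. No gene of this list was highest in replicate 2 by 0.5 or more.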

How the data were processed

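RNA of sorted medullary endothelial cells was measured on 3 Affymetrix Mouse Gene 1.0 ST arrays, after 1 round of WT-Ovation Pico amplification and biotin labelling. The authors deposited 1 log2 expression value for each probe set and array. The labels name Affymetrix Expression Console, and the text of the study names GeneSpring and robust multi-array averaging (RMA). RMA fits each probe set by median polish, which can give the same value on several arrays. The values ran from 3.55 to 14.4, from which the log2 scale was taken, and the sources used here do not say whether 100 units means the same as a raw level of 100 in the study. Coordinates of probe sets, probe-level data and scan dates were not used here.

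The platform annotation gave 1 gene for 21789 of the 35557 probe sets, several for 1621 and none for 12147, and 21698 of the single-gene probe sets (99.6%) were matched to RefSeq symbols. The level minus a limit was fitted with an intercept only (limma 3.58.1 in R 4.3.3, two-sided, lmFit with eBayes, p-values adjusted over 19938 genes by Benjamini-Hochberg, threshold 0.05). This fit was first tested on simulated data with known answers, with spreads drawn only from genes with 3 different values. The simulation therefore did not cover genes whose arrays repeat a value. Deviations of single arrays are descriptions, since 1 group of 3 arrays allows no test between them. Every one of the 56 genes is named by role, with fixed lists of other pathway genes and of markers of other cell types. The genes, lists and limits were chosen with earlier results of these data known. Alternatives changed the limits, the probe set of a gene, the normalization, the eBayes prior and the filter on low values, and left out each array in turn. Promoter windows came from RefSeq, 1 further motif searched is not reported here, and a planned comparison of class I protein sequences was not made. Python 3.11.15 with numpy 2.4.6, pandas 2.3.3 and matplotlib 3.10.9 was used.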

Additional observations from a re-analysis of the deposited data

How the results depend on the processing

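The count of the 56 genes above 100 units, 48 in the fit as reported, was 56 with a limit of 50 units (beside 94.3% of all genes), 36 with 200 units (62.3%) and 48 to 50 with the other settings of probe set, normalization, prior and low-value filter. It was 40 to 45 without 1 array (77.7% to 78.8% of all genes), and 36 of the 48 kept the call whichever array was left out, while Cd74, Ctss, H2-Aa, H2-Ab1, H2-DMa, H2-Eb1, H2-M10.3, H2-M2, H2-Ob, Ifi30, Rfxap and Tap1 lost it at least once. The count above the background limit, 31, fell to 20 with the 99th percentile of the sensory receptors as limit, where 30% of all genes passed, stayed at 30 to 32 with the other settings and was 23 to 26 without 1 array (42.6% to 43.8% of all genes). Of the 31 genes, 22 kept the call whichever array was left out, as did 18 of the 20 below the limit, with H2-K2 and H2-Ob the exceptions. These counts of kept calls include genes with the same value in every array, as 23 of the 56 had. Leaving out an array changes neither their level nor their spread, so it put their calls to no test. Re-normalizing by quantiles or medians brought H2-Ea and H2-K2 past 100 units and H2-Q2 past the background limit, with Ctss then below it. The prior from genes with 3 different values made the same calls for H2-Ea, H2-K2 and Ctss and ended that of Rfx5, and the robust and trended prior ended that of Cd74. Ciita turned to just below the background limit without replicate 2 (-0.0142 log2 units, with a range of -0.0142 to 0.0827 over the arrays left out), and H2-Ea to -0.0400 without replicate 3 (range -0.0400 to 0.895).

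The class II median of replicate 2 minus the other arrays, 0.526, was 0.517 to 0.533 under other probe set rules and normalizations and 0.505 as a mean. Under settings added after seeing the data it was 0 without replicate 1, 0.461 without replicate 3 and 0.979 over H2-Aa, H2-Ab1, H2-DMa and Cd74 alone. The cause of these changes was not tested. No paired analysis was possible because all arrays belong to 1 group. With 3 arrays, differences of a few hundredths from a limit, as for Ciita and Rfx5, cannot be resolved.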

Other observations

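Probe sets that name several genes were left out of the 56 genes, and 11 of them name an H2 gene or another gene of the set. The classical class I genes were read only in this way. A probe set for H2-K1 and H2-D1 measured log2 12.20, 12.24 and 12.12 in replicates 1, 2 and 3, and another for the same genes 11.82, 11.82 and 11.78. The probe set for H2-Q6 and H2-Q8 measured 9.73, 10.67 and 9.57, a range of 1.10, with replicate 2 highest. The probe set for H2-DMb1 and H2-DMb2, the DM beta chains, measured 8.72, 9.10 and 8.75, with replicate 2 highest as in H2-DMa. A probe set that joins H2-T23 to a pseudogene measured 9.66 in every array, and the one for H2-T3 and H2-T18 measured 7.17 in every array. For H2-Q1 and H2-Bl together the level was 8.99 in every array, past the background limit, whereas H2-Bl alone lay under it. For H2-T9, H2-T22 and H2-T10 together it was 8.50, 8.70 and 8.70, lower than for H2-T10 alone. Probe sets that join Psme2 or Tapbp to another gene were past the limit in every array. Which gene of such a probe set was read cannot be told.

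Outside the 56 genes and among genes past the background limit in at least 1 array, the 10 genes highest in replicate 2 with the largest gap to the next array included Cxcl9, at 7.63, 9.76 and 8.01, and Cxcl10, at 8.08, 10.12 and 8.37, a pair of chemokines known to be induced by interferon. Their gaps to the next array were both 1.75. Among genes called interferon-induced or inducible above, Psmb9 and Psmb10 were highest in replicate 2, by only 0.11 and 0.13. Of all genes, 12.45% were highest in that array. In replicate 2, Psmb8 tied with replicate 1 and Irf1 was at its lowest. A part of interferon in these values was not tested. The others of the 10 genes were Olfr920, Itpripl2, Mir681, Rps27l, Taf1a, Adamts9, Snora23 and Snord16a, with gaps between 1.44 (Snord16a) and 2.23 (Olfr920).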
